A study of Mus musculus with 8 samples.

Results

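The comparison described here is that of whole eyes of mice lacking Nr3c1 in the retina with whole eyes of WT mice at 3 times of day, ZT9, ZT15 and ZT21 (zeitgeber time, in hours after lights-on). It uses 6 of the 8 libraries of the study, 3 per genotype, chosen by their labelled genotype and time, with time as a factor. The WT mice were Cre-negative and the others, called cKO here, were Cre-positive with a retina-specific deletion of Nr3c1. All were untreated 12-week-old males under a cycle of 12 h light and 12 h dark, and eyes were taken every 6 h. The RNA of 3 mice per genotype and time was pooled in equal amounts into 1 library, so no genotype and time has a repeat and the 3 times of a genotype stand in as its replicates. The promoter that drives Cre is not given in the sources used here, and whole eyes also hold tissues outside the retina, to which the labelled deletion does not apply. The 2 ZT3 libraries were left out of the fit because they stand apart as whole libraries, and they serve below as a pair that the choice of genes did not use. Some label fields give ciliary body as the tissue and nonpigmented ciliary epithelial cells as the cell type, whereas the protocols name whole eyes. In all 6 libraries rod genes took 6.76 to 8.07% and lens genes 15.1 to 24.5% of the counts, and genes of the ciliary epithelium 0.261 to 0.306%.

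Nr3c1 encodes the glucocorticoid receptor, a nuclear receptor that sits in the cytoplasm with heat shock proteins until it binds a corticosteroid. It then moves to the nucleus, where it binds DNA at paired short sites and raises the transcription of some genes, and represses others, many of them inflammatory. Corticosteroid levels follow the day in mice, and the hormone can reset clocks in peripheral tissues. In the retina the receptor is best known from Müller glia, the radial glia that carry out glutamate uptake and metabolic support.

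Total counts ran from 11748995 in the WT ZT9 library to 20309611 in the cKO ZT9 library. After a filter on low counts, 15433 genes were tested. The WT ZT9 library stood apart within its genotype: 1507 genes were at least 1.5-fold above both other WT libraries in it (CPM scaled over all 8 libraries), against 66 to 192 genes in the other 5 libraries. Counted with CPM scaled over the 6 libraries alone, 1401 genes were raised there, and they had long transcripts (median 6314 nt for the 1348 with a length, against 3390 nt over all genes) with a low GC content (43.9% against 49.7%). The log2 levels of WT ZT9 correlated with those of cKO ZT9 at r = 0.951 across genes, against 0.986 for the ZT15 pair and 0.973 for the ZT21 pair (genes are not independent replicates). Genes at least 1.5-fold apart numbered 1605 higher (10.4%) and 2900 lower (18.8%) in cKO at ZT9. At ZT15 they numbered 556 (3.6%) and 660 (4.28%), at ZT21 1537 (9.96%) and 1476 (9.56%), and at ZT3 276 (1.79%) and 533 (3.45%). The ZT15 pair thus differed in the fewest genes of the 3 pairs used.

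**Figure D1:**
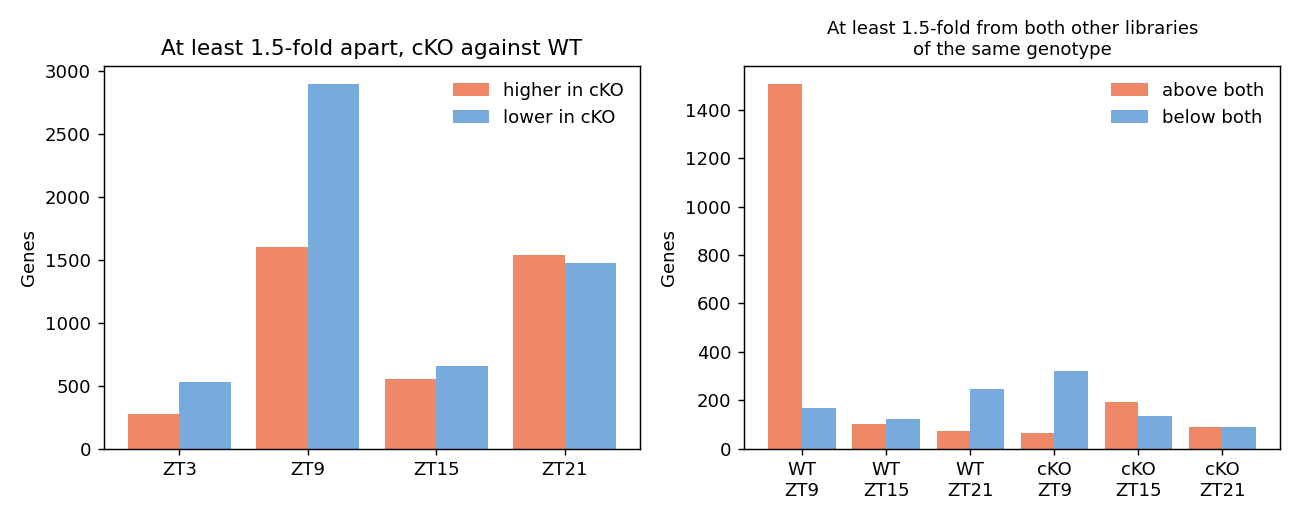
Number of genes at least 1.5-fold apart between cKO and WT at each time (left, bars in orange for higher and in blue for lower in cKO), and number of genes at least 1.5-fold above or below both other libraries of the same genotype (right). WT ZT9 has 1507 genes above both other WT libraries, and no other library exceeds 192 in that direction.

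Of the 15433 genes tested, 3930 (25.5%) were higher and 4044 (26.2%) lower in cKO at all 3 times, together 7974 (51.7%), by the difference in log2(CPM + 0.5), where CPM is the count scaled to a common library size (TMM). For 2807 genes (18.2%) all 3 cKO values lay above all 3 WT values, and for 2813 (18.2%) all lay below. A much smaller group was at least 1.5-fold apart at every time, 128 genes higher (0.829%) and 222 lower (1.44%). With a mean level of at least 5 CPM, 100 of the higher and 87 of the lower genes were left. Of the 222 lower genes 46 are annotated as pseudogenes, against 5 of the 128 higher genes. edgeR's quasi-likelihood test called 0 of 15433 genes at an adjusted p under 0.05 and, at an unadjusted p under 0.05, counted 1895 genes higher (12.3%) and 1959 lower (12.7%). Its smallest adjusted p was 0.0529, for Nr3c1, and 1222 genes (7.92%) had an adjusted p under 0.10. DESeq2 called 483 genes higher (3.13%) and 360 lower (2.33%), and limma-voom called Nr3c1 alone, with 3886 genes at an unadjusted p under 0.05. Without the ZT9 pair, edgeR called 1381 genes higher and 1106 lower. Since edgeR with all 6 libraries made no call, each gene below is described by its levels and not as changed. With time as a factor, the p-values rest on how far the genotype difference of pools varied between times. The spread of single mice, or of pools of the same genotype and time, was not measured.

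Nr3c1 itself checked the labels. At ZT9, ZT15 and ZT21 the WT libraries held 142, 126 and 134 CPM of it and the cKO libraries 35.2, 36.5 and 32.7 CPM, and levels below are given in that order of times. The groups did not overlap, and the cKO mean of 34.8 ± 1.94 CPM was 26.0% of the WT mean of 133.9 ± 7.57 CPM (SD, n = 3). The log2 fold change was -1.95 (SE 0.12), with an adjusted p of 0.0529 in edgeR and 3.4e-26 in DESeq2. Over the 6 libraries, the exact permutation test (two-sided) gave p = 0.1, the smallest that the 20 arrangements allow. That test exchanged genotypes over all 6 libraries and did not keep the pairing by time that the fit holds. At ZT3 the gene had 78.6 CPM in WT against 38.3 CPM in cKO, so the WT level there was below that of the other times. It is a minus-strand gene of chromosome 18 (39410545 to 39519421, GRCm38, GENCODE M21). In whole eyes, receptor RNA that remains in the retina and that of tissues outside it cannot be told apart, and for every gene below fewer cells of a type and less RNA per cell cannot be told apart either.

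Beside Nr3c1, the lower gene whose difference held best at all 3 times was Etnppl, an enzyme of astroglia and liver that breaks down phosphoethanolamine. Its levels were 7.32, 17.9 and 13.3 CPM in WT against 2.42, 2.95 and 2.75 CPM in cKO. The cKO libraries lay close together and below every WT library, among which ZT15 was the highest. The log2 fold change was -2.16 (SE 0.23), with an adjusted p of 0.0842 in edgeR and 1.9e-07 in DESeq2. At ZT3 the levels were 8.40 CPM in WT against 2.11 CPM in cKO, so the cKO level was low at all 4 times. Etnppl is a plus-strand gene of chromosome 3 (130617448 to 130637521, GRCm38).

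The other genes lower at every time were chosen by the smallest of their 3 differences, among genes with a mean of at least 5 CPM. Mitochondrial and Y-linked genes and symbols of predicted genes (Gm and a number, or ending in Rik or -ps) were left out of this rank and of that of the higher genes. The rank ended at Tirap, with a smallest difference of -0.77 at ZT9, and the next gene, Rnf207, had a smallest difference of 0.74 in size. Tirap, an adaptor of Toll-like receptors, had 22.9, 23.4 and 25.5 CPM in WT against 13.3, 13.4 and 13.7 CPM in cKO. Each genotype kept nearly the same level at the 3 times, and the log2 fold change was -0.83 (SE 0.12, edgeR adjusted p 0.0842). Birc5, the mitotic protein survivin, had 8.87, 8.79 and 12.1 CPM in WT against 4.62, 4.58 and 6.10 CPM in cKO. Kcnk6, a background potassium channel, had 9.25, 8.19 and 9.04 CPM in WT against 2.64, 4.35 and 3.55 CPM in cKO. Dnah17, a heavy chain of axonemal dynein, had 9.56, 8.49 and 7.26 CPM in WT against 3.08, 4.28 and 3.49 CPM in cKO. In none of these 4 genes did the genotypes overlap, which a rank by these same differences favours. Of all genes 18.2% had all 3 cKO values below all 3 WT values. At ZT3, however, Birc5 and Kcnk6 were slightly higher in cKO, by 0.51 and 0.27 on the log2 scale, and Tirap differed by -0.07. The alpha-globin genes Hba-a1 and Hba-a2, near-identical copies whose reads the counting could split, are taken up with the erythrocyte genes. RP23-402O17.1 and RP23-417L14.6 complete the list, with log2 fold changes of -1.05 and -1.26. Neither has an entry in the annotation used here, and RP23-402O17.1 has the same counts as further symbols of the table, so its reads cannot be placed.

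On the other side, Pdyn came first in the rank by smallest difference, with 1.18. The mitochondrial genes mt-Co3 (1.16) and mt-Atp6 (0.95), which the rank leaves out, would have stood among the 10 higher genes, and the mitochondrial genes are described with their list. Pdyn encodes the precursor of the dynorphin opioid peptides and marks a class of amacrine cells, the inhibitory interneurons of the retina. Pdyn had 3.39, 4.21 and 5.34 CPM in WT against 11.1, 10.2 and 16.0 CPM in cKO without overlap between the groups. The log2 fold change was 1.52 (SE 0.16), with an adjusted p of 0.0842 in edgeR and 3.4e-05 in DESeq2. At ZT3 the levels were 9.57 CPM (WT) and 17.5 CPM (cKO). It is a minus-strand gene of chromosome 2 (129686565 to 129699844).

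The next gene of the rank was Mfap4, a protein of elastic fibres and the extracellular matrix, with 10.9, 10.1 and 9.32 CPM in WT against 34.0, 22.0 and 38.5 CPM in cKO. Its log2 fold change of 1.60 (SE 0.19) was the largest of the 10. Opn1sw, the short-wavelength opsin of cones, had 79.9, 70.3 and 91.3 CPM in WT against 191, 131 and 214 CPM in cKO. Opn1mw, the middle-wavelength opsin of the same cell class, went the other way, with 108, 103 and 99.3 CPM in WT against 75.7, 86.8 and 72.8 CPM in cKO. The log2 fold changes were 1.13 (SE 0.13) for Opn1sw and -0.40 (SE 0.12) for Opn1mw. Cone genes showed no common direction: with these opsins counted, 5 of 17 tested were higher and 2 lower at all 3 times. Arr3, cone arrestin, had a log2 fold change of -0.08.

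Several of the remaining genes belong to surface epithelia. Calml3, a calmodulin-like protein of stratified epithelium, had 112, 143 and 87.0 CPM in WT against 229, 280 and 231 CPM in cKO. Aqp3, a channel for water and glycerol of the corneal and conjunctival epithelium, had 20.3, 19.8 and 14.2 CPM in WT against 39.2, 45.6 and 51.0 CPM in cKO. Upk3bl, a relative of the uroplakins of urothelium, and Lypd2 had log2 fold changes of 0.91 (SE 0.11) and 0.92 (SE 0.12). None of these 4 genes overlapped between the genotypes at ZT9, ZT15 and ZT21, where 18.2% of all genes had all cKO values above all WT values. Their ZT3 differences were small or of the other sign, at -0.01 for Calml3, -0.60 for Aqp3, 0.13 for Upk3bl and 0.12 for Lypd2. Mgst3, a microsomal glutathione transferase, and Atox1, the copper chaperone that hands copper to the secretory pathway, also did not overlap. Mgst3 had 8.71, 9.24 and 7.90 CPM in WT against 18.5, 18.7 and 19.2 CPM in cKO, and Atox1 had 8.63, 9.24 and 8.54 CPM in WT against 20.3, 17.4 and 19.0 CPM in cKO. BC100530 closed the list with a log2 fold change of 0.99 (SE 0.11). Lypd2 was the last to be taken, with a smallest difference of 0.86, and Plac8 with 0.85 was the next in the rank. All 10 genes had an adjusted p of 0.0842 in edgeR, a value that many genes share, and were called by DESeq2. DESeq2 called 98 of the 100 genes at least 1.5-fold higher at all 3 times with at least 5 CPM, against 3.13% of all genes called higher. The 10 were chosen by their differences in these same libraries, so neither the calls nor the lack of overlap are separate support.

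**Figure D2:**
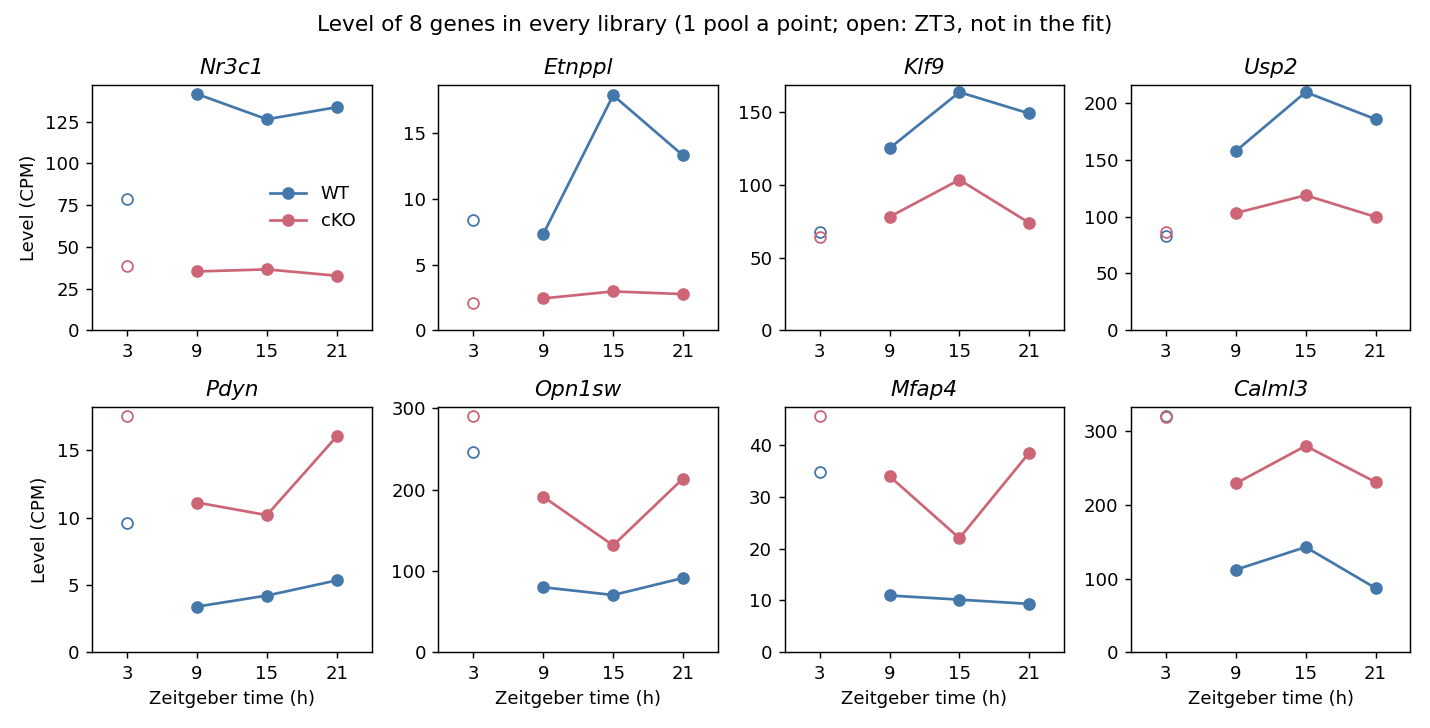
Level in CPM of 8 genes in every library against zeitgeber time in hours, with WT in blue and cKO in red (1 pool per point, no error bar). Filled points entered the fit and open points are the ZT3 pair. Nr3c1 and Etnppl stay low in cKO at all 4 times, whereas in Calml3, Klf9 and Usp2 the genotypes meet at ZT3.

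**Figure D3:**
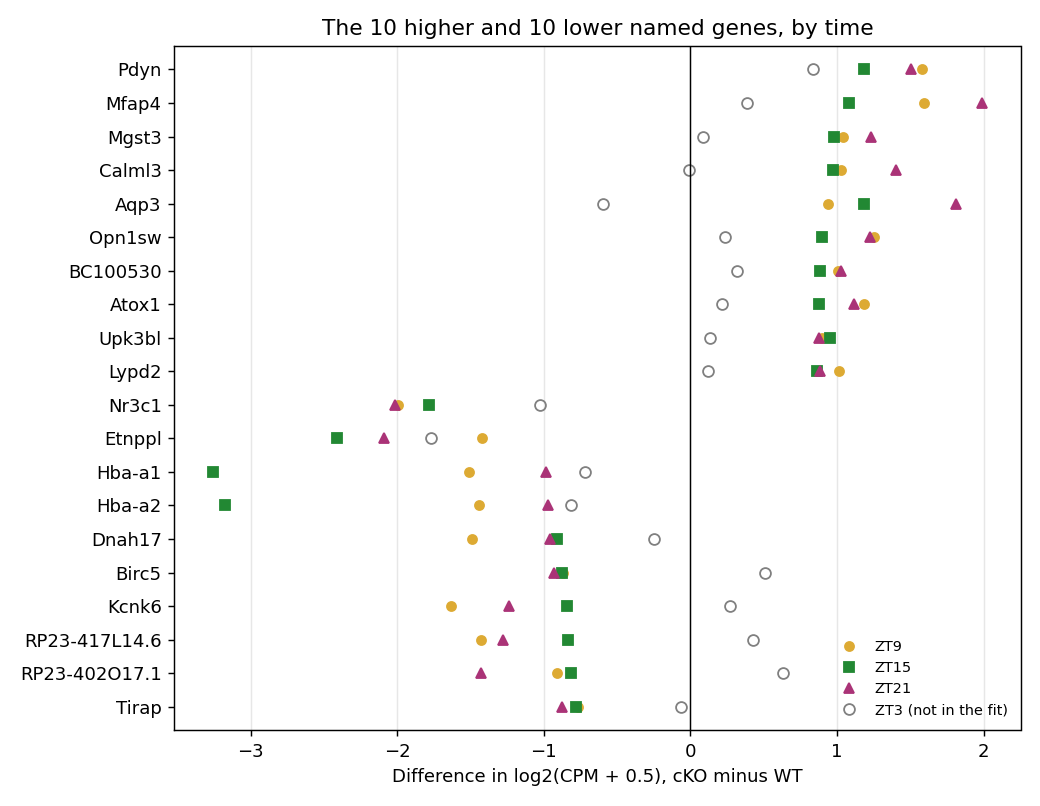
Difference in log2(CPM + 0.5), cKO minus WT, at each time for the 10 higher and 10 lower genes with the largest smallest difference, mitochondrial, Y-linked and predicted genes left out. Filled symbols are ZT9, ZT15 and ZT21, and open circles are ZT3, which lies on the other side of 0 for 6 of the 20 genes and nearer to 0 than at every other time for 13 of the other 14, Etnppl being the exception.

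Pdyn came first among the higher genes and Etnppl first after Nr3c1 among the lower genes. Opn1sw is among the higher genes that hold a receptor core site. The sequences upstream of these 3 genes are shown for these reasons. Each is a RefSeq promoter window on GRCm38.p6, from 250 bases before to 50 after an annotated start, given 5′ to 3′ on the gene's strand. Capitals mark the core site AGAACA, the repeated part of the receptor's element. Its reverse complement TGTTCT was searched as well.
Etnppl, chr3:130617198-130617497, plus strand: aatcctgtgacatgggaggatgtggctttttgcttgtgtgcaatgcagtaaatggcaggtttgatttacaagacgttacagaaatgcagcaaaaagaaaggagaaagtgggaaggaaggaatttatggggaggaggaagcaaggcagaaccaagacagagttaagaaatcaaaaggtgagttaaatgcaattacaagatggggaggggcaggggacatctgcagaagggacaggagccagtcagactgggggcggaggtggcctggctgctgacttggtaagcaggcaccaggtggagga
Pdyn, chr2:129699889-129700188, minus strand: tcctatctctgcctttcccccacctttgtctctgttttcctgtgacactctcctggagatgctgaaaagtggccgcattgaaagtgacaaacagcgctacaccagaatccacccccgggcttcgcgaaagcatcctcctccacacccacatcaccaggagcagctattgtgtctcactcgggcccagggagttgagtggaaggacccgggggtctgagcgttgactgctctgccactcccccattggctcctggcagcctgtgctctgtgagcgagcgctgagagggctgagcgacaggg
Opn1sw, chr6:29380464-29380763, minus strand: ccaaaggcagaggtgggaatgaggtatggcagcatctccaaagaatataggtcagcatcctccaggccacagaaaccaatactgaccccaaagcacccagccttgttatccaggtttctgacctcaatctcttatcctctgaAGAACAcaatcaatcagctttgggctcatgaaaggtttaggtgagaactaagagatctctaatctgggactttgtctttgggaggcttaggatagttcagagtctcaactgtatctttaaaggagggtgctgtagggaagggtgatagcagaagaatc
In Opn1sw the core site starts 108 bases before the start, and the Etnppl and Pdyn windows hold none in either orientation. Windows were found for 11384 of the 15433 genes, and a core site was in 15.2% of them. Among genes at least 1.5-fold apart at all 3 times it was in 33 of 125 lower (26.4%) and 17 of 83 higher genes (20.5%) with a window. The full receptor element (both core sites facing each other 3 bases apart) was in 1 window of all and in none of these sets. Klf9, Per3, Usp2, Mt3 and Nfkbia, described below, held no core site in their windows. A match says only that these letters are in the window, and distant sites were not searched.

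The ZT3 pair, which did not enter the choice of genes, gave a partial repeat of the directions, weaker for the lower genes. Of the 3930 genes higher at the other times, 2461 (62.6%) were higher in cKO at ZT3 too, where 49.7% of all genes were higher. Of the 4044 lower genes, 2267 (56.1%) were lower at ZT3, where 50.3% of all were lower. Of the genes of at least 5 CPM and at least 1.5-fold apart at the 3 times, 79 of 100 higher ones kept the direction at ZT3. Of the lower ones 49 of 87 (56.3%) did. Among all 12104 genes of that level 52.0% were higher and 48.0% lower at ZT3, so the lower set was not far from that share. The size of these differences was mostly not kept: 5 of the 100 and 9 of the 87 were 1.5-fold apart in the same direction at ZT3. Among all 12104 genes of that level 1.26% were 1.5-fold higher and 1.88% lower there. A further 1 of the 100 and 6 of the 87 were 1.5-fold apart at ZT3 in the opposite direction. The 5 higher genes 1.5-fold apart in the same direction were Pdyn, Schip1, S100a4, Golga7b and Fxyd6. The 9 lower were Nr3c1, Etnppl, Hba-a1, Hba-a2, Hbb-bs, Rnf207, Adam1a, Col20a1 and Gm29666. Those not met above were named after their values were seen. Schip1 had 11.3, 6.46 and 7.61 CPM in WT against 20.5, 14.2 and 23.5 CPM in cKO, and 18.3 against 38.0 CPM at ZT3. Rnf207 had 26.6, 29.2 and 22.5 CPM in WT against 13.9, 17.3 and 12.2 CPM in cKO. With 1 library per genotype at ZT3 there is no test of these differences.

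The levels of the WT ZT3 library moved with the result and stand beside it here. Of the 100 higher genes, 98 had more CPM in WT at ZT3 than in any other WT library, against 36.9% of the 12104 genes of at least 5 CPM. Of the 87 lower genes, 79 had less there than in any other WT library, against 39.2%. Mgst3, with 8.71, 9.24 and 7.90 CPM in the other WT libraries, had 20.9 CPM (WT) and 22.2 CPM (cKO) at ZT3. Klf9, a transcription factor, had 125, 164 and 149 CPM in the other WT libraries and 67.8 CPM (WT) and 64.4 CPM (cKO) at ZT3. For 78 of the 100 higher genes WT at ZT3 reached or passed the lowest of the 3 cKO libraries, and for 68 of the 87 lower genes it was at or under the highest of them. Nr3c1, Etnppl and Tirap were the 3 of the 10 lower genes, and Pdyn the 1 of the 10 higher genes, that did not reach the cKO range in this way. The same WT libraries chose the genes, so these counts are descriptions, and the part that a shift of whole libraries has in the differences was not tested.

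Genes listed as induced by glucocorticoids did not share a direction. Of 39 tested, 12 were higher and 11 lower in cKO at all 3 times, with a median log2 fold change of 0.02, against -0.03 over all genes. Klf9, induced by the receptor in many tissues, had 78.0, 104 and 73.8 CPM in cKO and a log2 fold change of -0.79 (SE 0.13, edgeR adjusted p 0.0842). Nfkbia, the inhibitor of NF-kappaB, had 28.0, 30.7 and 31.7 CPM in WT against 17.6, 20.0 and 13.1 CPM in cKO. Both were at least 1.5-fold lower at every time without overlap, and neither was at ZT3, where the differences were -0.07 and 0.19. Hif3a, Zbtb16 and Cebpd were also lower at each time, with log2 fold changes of -0.75, -0.60 and -0.37 and overlapping groups. Mertk, a receptor for the uptake of outer segments and dying cells, had 25.1, 26.4 and 19.0 CPM in WT against 15.6, 18.0 and 15.9 CPM in cKO.

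Other members of the list were higher in cKO. Mt3, a brain metallothionein listed beside Mt1 and Mt2, had 6.01, 8.49 and 7.83 CPM in WT. In cKO it had 16.6, 13.7 and 16.3 CPM, a log2 fold change of 1.07 (SE 0.18). Whether Mt3 responds to glucocorticoids in the eye was not tested. The other metallothioneins did not follow it, with -0.18 for Mt1 and -0.25 for Mt2. Glul, the glutamine synthetase of Müller glia, had 1057, 1366 and 1484 CPM in WT against 2113, 1675 and 2082 CPM in cKO. Ucp2, Arl4d and Tsc22d3, the last a classical receptor target also called GILZ, had log2 fold changes of 0.92, 0.93 and 0.70. Fkbp5, a co-chaperone that limits the receptor and is among its most responsive targets, had no single direction. Its levels were 19.1, 44.4 and 25.6 CPM in WT against 22.1, 29.6 and 19.7 CPM in cKO, so the WT library at ZT15 was the highest and ZT9 went the other way. Per1, Sgk1 and Dusp1 had log2 fold changes between 0.02 and 0.12 in size.

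The partners of the receptor gave 4 higher and 6 lower genes of 15 tested, with a median of -0.05. Nr3c2, the mineralocorticoid receptor that binds the same hormone, had 29.1, 28.5 and 28.5 CPM in WT against 25.8, 25.9 and 28.2 CPM in cKO (log2 fold change -0.11, SE 0.11). Ncor1, a co-repressor of nuclear receptors, had 466, 401 and 417 CPM in WT against 221, 297 and 249 CPM in cKO. Of the chaperone genes, Hsp90ab1 and Ptges3, the p23 protein of the receptor complex, were higher at each time, with log2 fold changes of 0.51 and 0.77. Hsp90aa1 and Fkbp4 had no single direction.

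Clock genes showed no common direction. Of 25 tested, 5 were higher and 7 lower at all 3 times, with a median log2 fold change of -0.02. Usp2, a ubiquitin protease of the clock and a clock output, had 158, 209 and 186 CPM in WT against 103, 119 and 99.7 CPM in cKO. All cKO libraries lay below all WT libraries, with a log2 fold change of -0.78 (SE 0.13, edgeR adjusted p 0.0842), but the ZT3 levels were 82.9 CPM in WT against 86.2 CPM in cKO. Per3 had 77.1, 53.9 and 42.7 CPM in WT against 26.3, 36.9 and 29.4 CPM in cKO, and it was lower at ZT3 too, by 0.60 on the log2 scale. Ciart, a repressor of the clock activators, had 17.1, 15.1 and 17.8 CPM in WT against 11.5, 11.1 and 10.3 CPM in cKO. Cry1, a core repressor, had 25.9, 26.2 and 26.3 CPM in WT against 33.5, 32.4 and 32.0 CPM in cKO, a small difference (log2 fold change 0.32, SE 0.11) that was alike at all 3 times. Among the other loops of the clock, Per1, Per2, Nr1d1, Dbp and Arntl had log2 fold changes between -0.10 and 0.06. The high WT ZT9 levels of Clock (327 CPM, against 114 and 117 CPM at ZT15 and ZT21) and Rora (921 CPM, against 397 and 396 CPM) belong to the library that stood apart.

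Genes of Müller glia were mostly higher. Of 26 tested, 16 were higher and 4 lower at all 3 times, with a median of 0.33. Clu, clusterin, had 373, 432 and 460 CPM in WT against 1008, 692 and 957 CPM in cKO, and Apoe, the main lipid carrier of glia, had 326, 383 and 421 CPM in WT against 858, 607 and 912 CPM in cKO. Both had a log2 fold change of 1.06 and did not overlap, and at ZT3 the differences were 0.09 and 0.19. Abca8a, a lipid transporter, had 83.0, 75.2 and 89.2 CPM in WT against 128, 116 and 149 CPM in cKO. The glutamate transporter gene Slc1a3 and the retinoid carrier gene Rlbp1 had log2 fold changes of 0.78 and 0.79. The 4 lower members were the transcription factors Hes1, Sox9, Id1 and Sox2, at -0.46, -0.51, -0.24 and -0.17. The list took 0.521 to 0.598% of the counts in WT and 0.689 to 0.780% in cKO, but at ZT3 0.968% in WT against 0.944% in cKO.

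Among genes of the inner retina, those of ganglion and amacrine cells were mostly higher. Of 22 ganglion cell genes 17 were higher and 2 lower, with a median of 0.37. Sncg, gamma-synuclein, had 11.7, 12.9 and 19.1 CPM in WT against 36.0, 26.5 and 32.5 CPM in cKO, and Thy1, a surface protein used to mark these cells, had 26.1, 30.1 and 33.7 CPM in WT against 60.6, 44.3 and 59.8 CPM in cKO. Of 23 amacrine cell genes 16 were higher and 3 lower. The amacrine list's share of the counts was not higher, however, at 0.0991 to 0.104% in WT against 0.0956 to 0.101% in cKO, and at ZT3 0.133% against 0.111%. The ganglion list took 0.0923 to 0.112% in WT against 0.114 to 0.123% in cKO. Calb2, the calcium buffer calretinin, had 59.6, 74.8 and 82.8 CPM in WT against 162, 115 and 144 CPM in cKO. Snhg11, a long noncoding RNA of neurons, was 1 of the 3 lower, with 75.9, 66.7 and 66.5 CPM in WT against 33.7, 47.5 and 34.3 CPM in cKO. It was lower at ZT3 as well, by 1.22 on the log2 scale.

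Of 18 genes of neuropeptides and their processing 13 were higher and 0 lower at all 3 times. Beside Pdyn, Crhbp, which binds corticotropin-releasing hormone, had 9.71, 14.7 and 11.9 CPM in WT against 25.9, 18.2 and 27.4 CPM in cKO. Cartpt had 17.2, 21.4 and 18.9 CPM in WT against 28.2, 27.5 and 29.6 CPM in cKO. Penk, the enkephalin precursor, had a log2 fold change of 0.69 without a single direction, and the medians of the list were 0.71, 0.24 and 0.30 at ZT9, ZT15 and ZT21 and 0.07 at ZT3.

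Rod genes showed no common direction. Of 28 tested, 8 were higher and 5 lower, with a median of -0.04. Pde6a, a catalytic subunit of the rod phosphodiesterase, was lower, with 2924, 3380 and 3618 CPM in WT against 2329, 2419 and 2137 CPM in cKO, and Gnb1 was higher with a log2 fold change of 0.57. Bipolar genes gave 6 higher and 4 lower of 21. Of 19 genes listed for the retinal pigment epithelium, which feeds the photoreceptors, 13 were higher and 4 lower. Ttr, a carrier of retinol and thyroid hormone, had 362, 482 and 433 CPM in WT against 756, 653 and 784 CPM in cKO, whereas Kcnj13, a potassium channel of its apical side, had 80.1, 63.1 and 52.0 CPM in WT against 51.6, 42.3 and 37.2 CPM in cKO.

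Lens genes were higher as a group. Of 35 tested, 24 were higher and 1, Maf, lower at all 3 times, with a median log2 fold change of 0.43. Cryaa, the alpha-crystallin chaperone that makes up much of the lens, had 22625, 27733 and 32361 CPM in WT against 68897, 46986 and 66017 CPM in cKO. Lgsn, lengsin, had 659, 760 and 693 CPM in WT against 1500, 1166 and 1362 CPM in cKO. The members did not move by the same amount: Cryaa had a log2 fold change of 1.13, whereas Mip, the water channel of lens fibres, had 0.36 and the gamma-crystallin gene Crygf 0.05. The gamma-crystallin genes are near-identical copies, and their single values are uncertain. The whole list took 15.1 to 18.7% of the counts in WT and 20.2 to 24.5% in cKO, and at ZT3 15.2 and 20.7%. Leaving out any of the 3 times gave 25 to 30 higher genes of 35 (71.4 to 85.7%), against 31.4 to 36.7% of all genes. Apart from rescaling, this count cannot fall when a time is dropped, so it is no separate support. Adding ZT3 gave 24 (68.6%), against 15.7% of all genes.

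Genes of the cornea and conjunctiva gave 21 higher and 1 lower, Pax6, of 26 tested, with a median of 0.67. Krt12, the keratin of the corneal epithelium, and Aldh3a1, its abundant crystallin-like enzyme, had log2 fold changes of 0.77 and 0.86. Perp, a desmosome protein, had 95.6, 120 and 87.0 CPM in WT against 173, 216 and 191 CPM in cKO, and Lypd2 had 95.4, 107 and 85.6 CPM in WT against 193, 196 and 159 CPM in cKO. The medians were 0.36, 0.65 and 0.92 at ZT9, ZT15 and ZT21 but -0.05 at ZT3, and with ZT3 added the count of higher genes was 10 of 26. The list took 0.475 to 0.598% of the counts in WT and 0.531 to 0.929% in cKO, ranges that overlap. Of 30 genes listed for the ciliary epithelium 12 were higher and 3 lower. Aqp5, a water channel shared with glands and cornea, had 124, 182 and 123 CPM in WT against 184, 303 and 223 CPM in cKO, and Bmp4, a growth factor of the ciliary margin and pigment epithelium, had 46.8, 40.9 and 40.1 CPM in WT against 29.1, 27.8 and 22.5 CPM in cKO.

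The genes of the mitochondrial genome had the largest median of the 42 lists. All 13 of its protein-coding genes were higher at all 3 times, with a median of 1.52, and 10 of the 13 were at least 1.5-fold higher at each. mt-Co3, a subunit of cytochrome oxidase, had 1235, 1498 and 1204 CPM in WT against 7180, 3340 and 6575 CPM in cKO. mt-Nd4, a subunit of complex I, had 1274, 1311 and 1095 CPM in WT against 4280, 2376 and 4214 CPM in cKO. The list took 1.09 to 1.35% of the counts in WT and 2.08 to 3.69% in cKO. At ZT3 it took 5.49% in WT and 6.11% in cKO, both above all 6 other libraries. The nuclear genes of the respiratory chain moved less: 17 of 32 were higher and 0 lower, with a median of 0.23. Cox4i1 had 174, 212 and 222 CPM in WT against 369, 278 and 333 CPM in cKO.

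Ribosomal protein genes gave 30 higher and 0 lower of 35, with a median of 0.53. Rplp0, a protein of the ribosomal stalk, had 430, 467 and 500 CPM in WT against 977, 768 and 940 CPM in cKO. Housekeeping genes gave 12 higher and 2 lower of 15. Eef1a1, the elongation factor that brings transfer RNA to the ribosome, had 2493, 2863 and 3315 CPM in WT against 5642, 4651 and 5748 CPM in cKO, and Actb, cytoplasmic actin, had a log2 fold change of 0.96. Of 25 glycolysis genes 18 were higher and 1 lower. The lower was Hk2, the hexokinase of photoreceptors, with 219, 409 and 360 CPM in WT against 162, 220 and 205 CPM in cKO. Of 24 genes of cholesterol synthesis 14 were higher and 1 lower. Insig1, the feedback regulator of the pathway, had 26.8, 26.2 and 21.1 CPM in WT against 53.2, 32.6 and 47.8 CPM in cKO, a log2 fold change of 0.83. At ZT3 its difference was -0.11. Genes higher at all 3 times had shorter transcripts (median 2971 nt) and a higher GC content (52.2%) than those lower (3628 nt and 47.6%). Among genes 1.5-fold apart at all 3 times the median length was 1767.5 nt for the higher and 2743.5 nt for the lower. Both were below the 3390 nt of all genes.

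**Figure D4:**
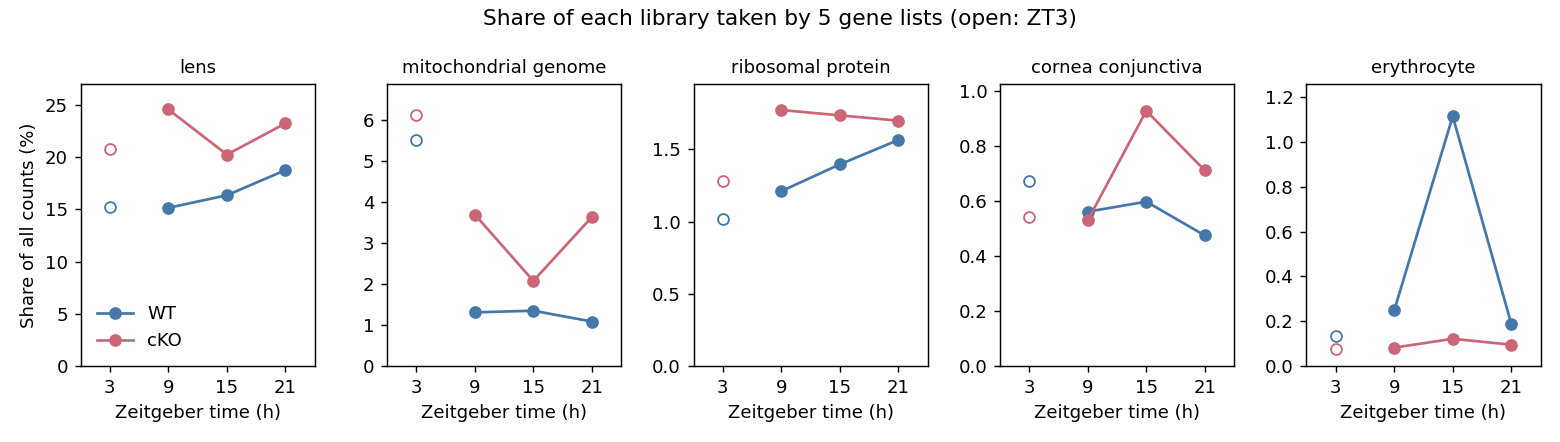
Share of all counts of a library taken by 5 gene lists, in percent, against zeitgeber time in hours, with WT in blue and cKO in red (1 pool per point, open points at ZT3). The lens, mitochondrial and ribosomal shares are higher in cKO at each of the 4 times, whereas the erythrocyte share is lower in cKO and peaks in WT at ZT15 with 1.11%.

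Immune genes were higher in 15 of 25 and lower in 1, with a median of 0.60. Ctss and Laptm5, lysosomal proteins of macrophages and microglia, had log2 fold changes of 1.20 and 1.23 and the complement genes C1qa and C1qb had 1.11 and 1.09. Laptm5 had 5.70, 5.19 and 4.41 CPM in WT against 12.3, 8.93 and 15.1 CPM in cKO. Ptprc, the pan-leukocyte marker CD45, went against the rest with 5.40, 4.96 and 4.27 CPM in WT against 2.15, 2.80 and 1.61 CPM in cKO. Microglial Cx3cr1 and Aif1 had log2 fold changes of 0.06 and 0.18, and at ZT3 the median of the list was -0.03. The list took 0.0150 to 0.0181% of the counts in WT and 0.0196 to 0.0239% in cKO. With ZT3 added, 7 of 25 genes were higher.

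Of 18 gliosis and stress genes 6 were higher (33.3%, against 25.5% of all genes) and 3 lower (16.7%, against 26.2%) at all 3 times. C4b, Serpina3n and S100a6 were among the higher. Serpina3n, a secreted protease inhibitor of reactive glia that glucocorticoids can induce, had 11.9, 18.0 and 18.1 CPM in WT against 26.5, 26.4 and 36.3 CPM in cKO. At ZT3 it was lower in cKO, with 61.2 against 38.0 CPM. Matrix genes gave 13 higher and 4 lower of 27, among them Fmod and Fbln1, proteins of collagen and elastic fibres, with log2 fold changes of 1.01 and 0.99. Dcn, decorin, was among the lower, with a log2 fold change of -0.66. Pigment cell genes gave 7 higher and 2 lower of 17, among them Pmel, the fibril protein of the melanosome, with 158, 197 and 191 CPM in WT against 390, 283 and 457 CPM in cKO. Endothelial genes gave 11 higher and 1 lower of 19, with a median of 0.02 at ZT15.

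**Figure D5:**
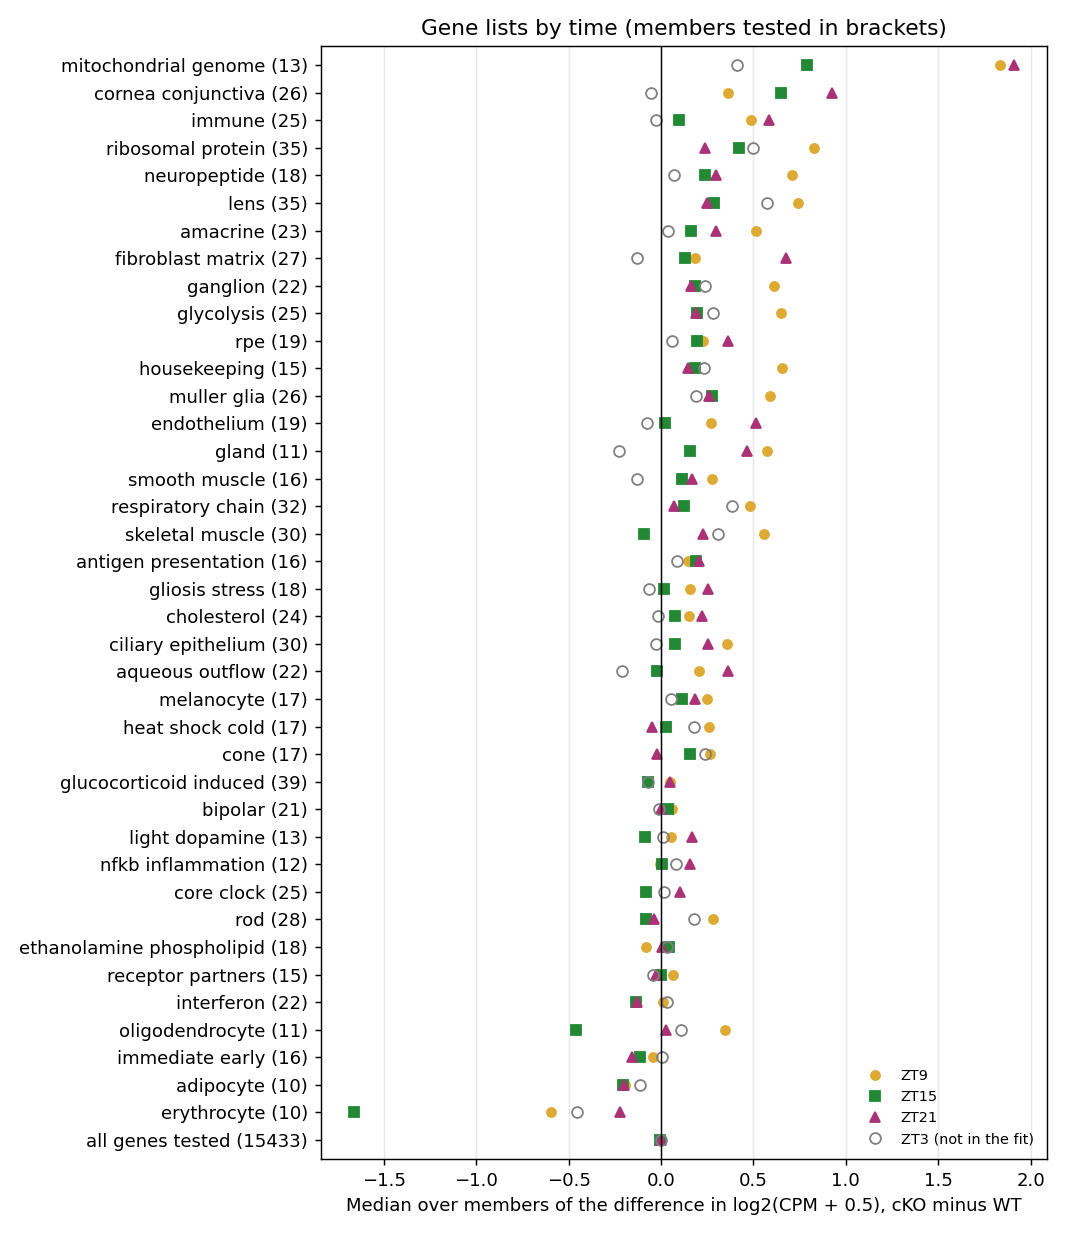
Median over the tested members of each gene list of the difference in log2(CPM + 0.5), cKO minus WT, at ZT9, ZT15 and ZT21 (filled) and at ZT3 (open), with lists of at least 10 tested members ordered by their median and all genes tested at the bottom. The mitochondrial list stands farthest to the right at 1.84, 0.79 and 1.91, and the erythrocyte list farthest to the left with -1.66 at ZT15.

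Erythrocyte genes were mostly lower, by the widest margin at ZT15. Hba-a1 had 745, 3441 and 593 CPM in WT against 261, 359 and 299 CPM in cKO, so the WT library at ZT15 was far above the rest. Without that time the differences were -1.51 at ZT9 and -0.98 at ZT21, and at ZT3 it was -0.72. Hba-a2 and the beta-globin gene Hbb-bs followed it closely, and 6 of the 10 genes of the list were lower and 2 higher at all 3 times. The list took 0.189 to 1.11% of the counts in WT and 0.0829 to 0.122% in cKO. Whether the amount of blood in the eyes has a part in this was not tested.

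Interferon genes gave 1 higher and 4 lower of 22, with a median of -0.08. Rsad2, the antiviral enzyme viperin, had 5.55, 5.49 and 6.48 CPM in WT against 3.25, 3.47 and 3.96 CPM in cKO. Of the 4 tested genes of the Y chromosome 3 were lower in cKO, Ddx3y with a log2 fold change of -0.56, although all mice were labelled male. Of 16 immediate early genes 2 were higher and 5 lower. Egr1, which follows neuronal activity and light, had 13.3, 70.7 and 38.6 CPM in WT against 11.9, 56.7 and 19.2 CPM in cKO, a difference between genotypes well below that between times.

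The remaining lists gave smaller or mixed counts at all 3 times. Of 30 skeletal muscle genes 10 were higher and 2 lower, and of 16 smooth muscle genes 8 were higher and 3 lower. Ttn, the giant protein of the sarcomere, shows how WT ZT9 enters such values, with 167, 105 and 84.6 CPM in WT against 38.4, 84.6 and 65.3 CPM in cKO. Genes of the aqueous outflow gave 9 higher and 3 lower of 22. Gland genes gave 6 higher and 2 lower of 11, adipocyte genes 1 and 4 of 10, and oligodendrocyte genes 3 and 3 of 11. Antigen presentation gave 6 higher and 3 lower of 16, with H2-K1, a class I heavy chain, at 0.73. Heat shock and cold-induced genes gave 6 and 2 of 17, and horizontal cell genes 4 and 2 of 9. Genes of NF-kappaB signalling gave 2 and 2 of 12, and genes of light and dopamine signalling 3 and 2 of 13. Cxcl12, a chemokine, had 20.4, 20.1 and 16.8 CPM in WT against 28.7, 27.8 and 33.1 CPM in cKO.

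The other genes of the pathway of Etnppl showed no common direction. Of 18 genes of ethanolamine phospholipid metabolism 4 were higher and 3, Etnppl among them, lower, with a median of -0.04. Pcyt2, the enzyme that uses phosphoethanolamine for the synthesis of phosphatidylethanolamine, had 33.0, 40.1 and 41.5 CPM in WT against 37.0, 38.3 and 34.1 CPM in cKO. Etnk1, the kinase that makes phosphoethanolamine, had 495, 125 and 107 CPM in WT against 124, 188 and 191 CPM in cKO. It was thus lower at ZT9 and higher later, but the high WT ZT9 level belongs to the library that stood apart. Ptdss1, Ptdss2, Gde1 and Phospho1 were higher at each time, with log2 fold changes between 0.19 and 0.44. Pisd, the mitochondrial decarboxylase that makes phosphatidylethanolamine, was lower at each time, with a log2 fold change of -0.32.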

How the data were processed

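The authors deposited raw counts per gene symbol for 8 pooled libraries. The aligner, counting program, build and strand were not given in the sources used here, so reads of antisense or overlapping genes cannot be told apart. The table has 32544 rows, of which 27 whose symbol had become a date were left out. Only the 6 libraries of ZT9, ZT15 and ZT21 entered the tests. Counts were filtered with filterByExpr, scaled by TMM and tested with edgeR 4.0.16 in R 4.3.3 (quasi-likelihood, time and genotype as factors, 2 residual degrees of freedom, Benjamini-Hochberg adjustment over 15433 genes, threshold 0.05). Alternatives were limma-voom 3.58.1 and DESeq2 1.42.0, which gave no adjusted p for 1197 genes. ZT3 levels were scaled together with the other 6 libraries. Levels are CPM, and single-time differences use log2(CPM + 0.5). Pairing came from the labelled time of collection, which the main fit holds as a factor. The text names Nr3c1, the 10 higher and 10 lower genes with the largest smallest difference (mean of at least 5 CPM; mitochondrial, Y-linked and predicted genes left out), and up to 3 members of each of 42 lists with the whole lists of induced genes, receptor partners, clock and ethanolamine genes; other list members named were chosen after their values were seen. The comparison, its genes and the lists were chosen with earlier results of these data known. Names, lengths and GC content came from GENCODE M21 (GRCm38), and promoter windows from RefSeq. A few genes are not reported here.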

Additional observations from a re-analysis of the deposited data

Results flagged for a closer look

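At ZT3 some genes of the ranking lay on the other side of 0 from the 3 times that chose them, so that every library pair of those times moved one way and the ZT3 pair the other. For the higher genes Calml3 and Aqp3 the ZT3 differences, cKO minus WT, were -0.0062 and -0.60 on the log2 scale. For the lower genes Birc5, Kcnk6, RP23-417L14.6 and RP23-402O17.1 they were 0.51, 0.27, 0.43 and 0.63. Of the gene lists whose median had the same sign at ZT9, ZT15 and ZT21, the following turned at ZT3. The cornea and conjunctiva list had a median of -0.053 there, the immune list -0.026, the fibroblast and matrix list -0.129 and the endothelial list -0.076. The gland list had -0.225, the smooth muscle list -0.127, the ciliary epithelium list -0.026, the gliosis and stress list -0.067 and the cholesterol list -0.016. The immediate early list, lower at the 3 times, had 0.0050. With 1 library per genotype at ZT3 the difference from the other times was not tested.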

How the results depend on the processing

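The genes called by edgeR (0 higher and 0 lower) depended on the fit. Without a filter on low counts it called 199 higher and 150 lower, DESeq2 called 483 and 360, and limma-voom called 1 lower. Without time as the replicate block, genotype alone gave 697 higher and 651 lower, and without the WT ZT9 library as well, chosen after seeing the data, 1113 and 1137. Leaving out 1 time, which drops both of its libraries, gave 0 to 1381 higher and 0 to 1106 lower, with calls only where ZT9 was left out. The log2 fold change of Nr3c1 ran from -2.03 to -1.90 when a time was left out. It passed the threshold without ZT9 (-1.91), without a filter (-1.94), in DESeq2 (-1.94), in limma-voom (-1.94), without the replicate block (-1.94) and without the block and WT ZT9 (-1.90). With all 8 libraries it was -1.73, and 2416 genes were higher and 2325 lower at all 4 times. The causes of these shifts were not tested. Signs were followed for 154 genes, mostly ranked genes and list members, and none changed under a setting that gave it a value (Plin1 had none with all 8 libraries). Most of the 154 already had a single direction at each time in these same libraries. A reversal was therefore unlikely, and its absence is no separate support. Some genes named above, such as Per1 and Dusp1 with mixed directions, were not in this set. With a trend on length and GC content removed, 6534 of the 7974 genes of 1 direction kept it. With 2 residual degrees of freedom and 1 pool per genotype and time, a missing call does not show that genes did not differ.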
